A study of Homo sapiens with 4 samples.

Results

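Small nucleolar RNA host genes were followed in cells treated with GNE987. They were taken as the genes of the RNA-seq table whose GENCODE release 44 symbol is SNHG and a number, or GAS5, EPB41L4A-AS1, ZFAS1 or DANCR, which gave 32 of the 58735 genes. RNA was sequenced from 4 libraries of cells labelled NB4, a human cell line from acute promyelocytic leukemia. The 2 control libraries came from untreated cells, and the 2 GNE987 libraries from cells given 25 nM GNE987 for 24 h, a degrader of BET bromodomain proteins. The treatment is from the sample labels, while the dose and the time are from the legend of the study's volcano plot. Nothing in the labels says whether the 2 libraries of a group came from separate cultures, so the P values measure only the spread between these libraries.

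Small nucleolar RNAs guide chemical changes on ribosomal RNA, and in human cells most of them are cut out of the introns of longer transcripts. Box C/D RNAs guide methylation of the ribose, box H/ACA RNAs guide the change of uridine to pseudouridine, and small Cajal body RNAs do the same for spliceosomal RNAs. In the host genes described here the introns carry the small RNA, while the spliced exons code for no long protein and many of these RNAs are broken down by nonsense-mediated decay when ribosomes meet their short reading frames. Many host genes begin like ribosomal protein genes, with a C followed by a run of pyrimidines at the first base of the RNA, the 5′ TOP start, which ties the translation of the RNA to growth signals through mTOR.

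The start sequences carry the feature that host genes may share with ribosomal protein genes. RefSeq holds a promoter for 28 of the 32 host genes (GRCh38.p14). A run was counted as a C with at least 4 further pyrimidines whose C lies close to the annotated start. In the following windows of 20 bases before to 30 bases from the start, written 5′ to 3′ on the strand of the gene, capitals mark a run whose C lies within 3 bases of the start. The first 5 are genes with a run that were higher after GNE987.

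SNHG19, chr16:2155329-2155378, minus strand: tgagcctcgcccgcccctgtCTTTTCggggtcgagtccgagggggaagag
SNHG12, chr1:28581844-28581893, minus strand: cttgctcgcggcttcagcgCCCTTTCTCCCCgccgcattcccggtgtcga
SNHG5, chr6:85678704-85678753, minus strand: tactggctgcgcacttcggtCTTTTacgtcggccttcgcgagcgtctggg
SNHG32, chr6:31834896-31834945, plus strand: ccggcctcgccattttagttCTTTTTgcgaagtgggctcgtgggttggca
ZFAS1, chr20:49278622-49278671, plus strand: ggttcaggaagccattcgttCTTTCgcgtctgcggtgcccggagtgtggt

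Of the next 4 windows, those of SNHG3 and EPB41L4A-AS1 hold no such run although both genes were higher. SNHG4 has a long run and SNHG20 has none, and both genes were lower.

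SNHG3, chr1:28505923-28505972, plus strand: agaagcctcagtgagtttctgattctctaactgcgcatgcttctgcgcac
EPB41L4A-AS1, chr5:112160506-112160555, plus strand: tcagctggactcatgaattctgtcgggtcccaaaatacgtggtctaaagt
SNHG4, chr5:139274081-139274130, plus strand: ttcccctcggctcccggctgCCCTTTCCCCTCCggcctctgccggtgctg
SNHG20, chr17:77088623-77088672, plus strand: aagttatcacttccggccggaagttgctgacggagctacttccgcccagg

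GAS5 shows how much the annotated start matters. Its RefSeq start lies 1056 bases from the GENCODE canonical start, and a run at the start was found only in the GENCODE window on GRCh38.

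GAS5, chr1:173867960-173868009, minus strand: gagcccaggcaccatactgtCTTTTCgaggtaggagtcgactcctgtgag

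The small RNAs themselves show what these genes are spliced for. SNORD27 lies in SNHG1, SNORD50B in SNHG5, SNORD60 in SNHG19 and SNORD99 in SNHG12, the host genes with the largest changes or the highest levels. The sequences are the GENCODE genes on GRCh38, and capitals mark the letters TGATGA of box C and CTGA of box D. In SNORD99 the exact TGATGA is missing and only CTGA is marked.

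SNORD27, chr11:62855012-62855083, minus strand: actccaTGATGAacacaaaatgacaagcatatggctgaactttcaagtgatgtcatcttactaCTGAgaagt
SNORD50B, chr6:85677589-85677658, minus strand: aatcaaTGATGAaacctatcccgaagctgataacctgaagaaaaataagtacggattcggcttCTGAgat
SNORD60, chr16:2155023-2155105, minus strand: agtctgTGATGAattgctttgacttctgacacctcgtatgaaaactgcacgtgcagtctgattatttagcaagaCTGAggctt
SNORD99, chr1:28578749-28578822, minus strand: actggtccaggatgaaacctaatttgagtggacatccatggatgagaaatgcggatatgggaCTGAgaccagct

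Some facts of the libraries stand before the values. The unit is FPKM, fragments divided by the length of the gene and by the size of the library, and the 4 libraries hold between 10810967 and 16692721 reads on genes as recovered from the steps of the values, the GNE987 pair being the shallower. The deposited values follow median-ratio size factors, and on that scale the median log2 fold change of all 16668 genes tested was 0.17. On it 1 read of GNE987 replicate 1 or 2 weighs as much as 2.75 or 2.61 reads of control replicate 1. Read numbers of the 2 groups are therefore not directly comparable. The control cells lacked defining markers of promyelocytes, with MPO at 0.0246 and 0 FPKM and CTSG and ELANE at 0, and held 124 and 122 FPKM of GATA1, a factor of red cell precursors, so the markers do not follow the label NB4. With GNE987, MPO stood at 11.8 and 11.3 FPKM, CTSG stayed at 0 and ELANE was at 0 and 0.551 FPKM. Of 6 promyelocyte markers listed 4 were tested, and MPO, AZU1 and CEBPE were called higher (all genes 33.6%). MPO and CEBPE passed the filter on low levels only through the GNE987 libraries, so neither could have been called lower. Of 10 erythroid or megakaryocyte markers 5 rose and 5 fell (all genes 33.6% and 24.9%). The share of mitochondrial genes among reads on genes was 4.37% and 5.30% in control and 17.9% and 17.5% with GNE987. All 62 histone genes tested, a list added after the values were seen, had both GNE987 libraries above both control libraries, and their share of reads was 0.259% and 0.256% against 0.975% and 1.00%. The share of snRNA genes was 0.00476% and 0.00402% against 0.0556% and 0.0549%, and that of rRNA genes 0.000719% and 0.000376% against 0.0343% and 0.0414%, both also looked at after the values were seen. The labels name the same kit for the 4 libraries. The part of these shifts in the host gene results was not tested.

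Of the 32 host genes, 27 reached a mean level of 0.5 FPKM over the 4 libraries and were tested. A gene was called where limma on log2(FPKM + 0.1) gave P under 0.05 before adjustment and the change was more than 2-fold up or down. By this rule 15 host genes (55.6%) rose, 3 fell and 9 were not called, against 33.6% higher and 24.9% lower of all genes tested. Among the 2437 lncRNA genes tested the shares were 51.3% and 13.8%, so the host genes lie near the background of their own gene type. The median log2 fold change of the tested host genes was 1.27, beside 1.36 for lncRNA genes, and it was -0.58 when the libraries were scaled to GAPDH. Both GNE987 libraries were above both control libraries for 20 host genes (all genes 47.5%) and below them for 6 (all genes 41.6%). Where the mean level reached 5 FPKM, 12 of 19 host genes rose (63.2%) and 1 fell, beside 67% and 10.7% of all 300 lncRNA genes at that level. The shares of calls were alike there, but the medians were not. The median log2 fold change was 1.41 for these host genes and 2.97 for the 281 other lncRNA genes. A gene can reach that level through the GNE987 libraries alone. In bulk RNA, fewer cells of a kind and less RNA per cell cannot be told apart.

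**Figure D1:**
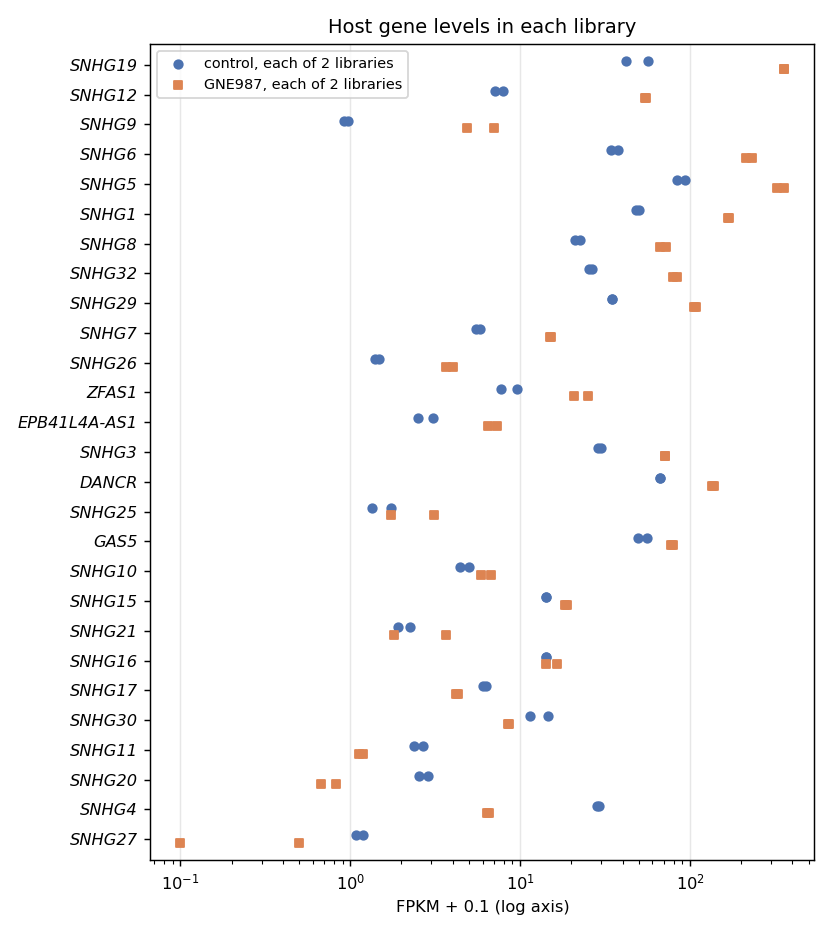
Level of each of the 27 tested host genes on a log axis of FPKM + 0.1, with a circle for each control library and a square for each GNE987 library, ordered by fold change. For SNHG21 the squares fall on both sides of the circles, the squares lie to the right for 20 genes and to the left for 6, and SNHG27 has a square at 0 FPKM.

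The control libraries were led by SNHG5, DANCR, GAS5, SNHG19 and SNHG1, with mean levels of 88.4, 66.4, 52.6, 49.1 and 49.0 FPKM. The last 3 of these, GAS5, SNHG19 and SNHG1, overlapped and did not differ beyond their spread. Together the 5 highest host genes held 53.7% of the summed FPKM of all host genes. In the GNE987 libraries the order of mean levels was SNHG19 at 356, SNHG5 at 340, SNHG6 at 223, SNHG1 at 167 and DANCR at 137 FPKM, and the 5 highest held 67.8%. SNHG19 and SNHG5 overlapped there, since SNHG5 reached 354 FPKM in one library and SNHG19 was at 355 and 358. GAS5 moved from rank 3 to rank 8 and SNHG4 from rank 9 to rank 18. All host genes together took 0.203% and 0.192% of reads on genes in control and 0.284% and 0.280% with GNE987.

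The host genes are described by the kind of small RNA that RefSeq places in them, a grouping made after the values were seen. Of the 10 tested genes that host only box C/D RNAs, 8 rose and none fell, with a median log2 fold change of 1.64. Of the 10 that host only box H/ACA RNAs, 6 rose and 2 fell, with a median of 1.15. The 3 tested hosts of small Cajal body RNAs had 1 gene that fell and none that rose. The shares to read these counts against are 51.3% higher and 13.8% lower among lncRNA genes tested, and 33.6% and 24.9% among all genes. The difference between these groups of hosts was not tested.

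SNHG19, the host of SNORD60, had one of the 2 largest increases and cannot be ranked against SNHG12, since after quantile normalization the log2 fold changes were 1.86 for SNHG19 and 2.60 for SNHG12. Its level was 56.3 and 41.9 FPKM in control and 355 and 358 FPKM with GNE987. This is a log2 fold change of 2.87 ± 0.16 (SE, adjusted P = 0.000429 over all genes, limma), or 7.33-fold. The control libraries differed by more than the GNE987 libraries, but both lay far below them. Its neighbour TRAF7, whose start lies 377 bases away on the other strand, had a log2 fold change of 0.07 and was not called.

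SNHG6, the host of SNORD87, rose from 37.7 and 34.3 FPKM to 232 and 214 FPKM. The log2 fold change was 2.63 ± 0.07 (SE, adjusted P = 0.000164, limma). GENCODE exons on the other strand cover 58.9% of the exon bases of SNHG6, and the gene that shares them, MCMDC2, went from 0.0478 and 0.0213 FPKM to 6.46 and 5.78 FPKM. The shared 1488 bases are more than the gene length of 1247 bases worked out from the FPKM steps for SNHG6. The share in the exons that were counted is therefore not known. Reads of the overlapping genes cannot be told apart by strand.

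SNHG5 hosts SNORD50A and SNORD50B and is the host gene most abundant in the control cells. Its levels were 93.3 and 83.4 FPKM in control and 354 and 326 FPKM with GNE987. The log2 fold change was 1.95 ± 0.08 (SE, adjusted P = 0.000256, limma). No GNE987 library came near the control level. PKMP3, a pseudogene whose exons share 715 bases with SNHG5 on the same strand, was listed at 0 in the 2 controls and stood at 15.1 and 11.9 FPKM with GNE987.

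SNHG1, first known as the host of the U22 RNA, carries 8 box C/D RNAs in RefSeq. Its values were tight, at 49.9 and 48.1 FPKM in control and 169 and 166 FPKM with GNE987. It rose by a log2 fold change of 1.77 ± 0.04 (SE, adjusted P = 0.00013, limma). No other long gene shares exon bases with SNHG1 in GENCODE.

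SNHG32 and SNHG29, hosts of 2 and 3 box C/D RNAs, rose by nearly the same amount. SNHG32 went from 25.3 and 26.3 FPKM to 78.8 and 84.2 FPKM, a log2 fold change of 1.65. SNHG29 went from 34.5 and 34.6 FPKM to 108 and 105 FPKM, a log2 fold change of 1.62. In both the spread within a group was small beside the difference between groups.

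ZFAS1 lies head to head with ZNFX1 and hosts 3 forms of SNORD12. It was at 9.53 and 7.60 FPKM in control and at 24.96 and 20.7 FPKM with GNE987, a log2 fold change of 1.41 ± 0.16 (SE, adjusted P = 0.00246, limma). The neighbour ZNFX1, which codes for a zinc finger protein, was at 3.33 and 3.24 FPKM against 3.05 and 3.07 FPKM and was not called. SNHG26, the host of SNORD93, was low in all libraries, at 1.37 and 1.29 FPKM against 3.92 and 3.54 FPKM, and was called higher with a log2 fold change of 1.42. Both genes had GNE987 libraries that lay clear of the control libraries.

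The 2 box C/D hosts that were not called were SNHG16 and SNHG30. The values of SNHG16 were 13.997 and 14.03 FPKM in control and 14.1 and 16.4 FPKM with GNE987. Its lower GNE987 library thus nearly touched the control level. SNHG30 was at 11.3 and 14.5 FPKM in control and at 8.35 and 8.51 FPKM with GNE987, a log2 fold change of -0.60 that did not reach the fold threshold (adjusted P = 0.02, limma).

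Among the box H/ACA hosts, SNHG9 had the largest log2 fold change, 2.63 ± 0.22 (SE, adjusted P = 0.00114, limma). It rests on few reads, 11 and 10 in control and 32 and 23 with GNE987, which are 0.867 and 0.82 FPKM against 6.95 and 4.73 FPKM. SNHG9 starts 69 bases from RPS2 on the other strand. RPS2, a protein of the small ribosomal subunit, rose from 825 and 859 FPKM to 4274 and 4191 FPKM, a log2 fold change of 2.33.

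SNHG8 and SNHG7, hosts of SNORA24 and of 2 forms of SNORA17, were higher as well. SNHG8 was at 22.4 and 20.9 FPKM against 71.9 and 66.7 FPKM (log2 fold change 1.67), and SNHG7 at 5.40 and 5.68 FPKM against 15.1 and 14.9 FPKM (log2 fold change 1.42). In GENCODE, exons of other genes cover 37.6% of the exon bases of SNHG8 and 30.3% of those of SNHG7. For SNHG8 these are 2487 bases, more than the gene length of 923 bases worked out from the FPKM steps. The share in the exons that were counted is therefore not known. PRSS12, which overlaps SNHG8, was at or near 0 in control and at 1.94 and 2.04 FPKM with GNE987.

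SNHG3 hosts SNORA73A and SNORA73B, the U17 RNAs that act in the cleavage of ribosomal RNA. Its levels were 28.8 and 29.9 FPKM in control and 71.1 and 70.9 FPKM with GNE987, a log2 fold change of 1.27 ± 0.04 (SE, adjusted P = 0.000199, limma). SNHG3 shares exon bases on the same strand with RCC1, the exchange factor of the RAN protein, which rose from 25.2 and 26.95 FPKM to 129 and 134 FPKM. Neither gene had overlapping groups.

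EPB41L4A-AS1 and DANCR were higher by a smaller amount. EPB41L4A-AS1, the host of SNORA13, went from 2.39 and 2.96 FPKM to 7.23 and 6.404 FPKM, a log2 fold change of 1.32. DANCR, a transcript named for holding back cell differentiation and the host of SNORA26, went from 66.5 and 66.3 FPKM to 139 and 135 FPKM. At a log2 fold change of 1.04 ± 0.04 (SE, adjusted P = 0.000221, limma) DANCR lies just past the threshold of 2-fold, and it was not called when the test was made against a 2-fold change.

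SNHG4 was the clearest decrease. This host of SNORA74A and SNORA74D was the ninth most abundant host gene in control, at 28.2 and 29.001 FPKM, and was at 6.26 and 6.44 FPKM with GNE987. It fell by 2.15 on the log2 scale (SE 0.05, adjusted P = 0.000139, limma). SNHG11, a host of SNORA60 and SNORA71E, fell by 1.13 on the log2 scale from 2.59 and 2.28 FPKM to 1.02 and 1.09 FPKM, with 24 and 27 reads in the GNE987 libraries, and was not called either in the test against a 2-fold change. For both genes the GNE987 libraries lay below the control libraries.

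SNHG15 and SNHG17 complete the box H/ACA hosts and were not called. SNHG15 was at 14.02 FPKM in each control library and at 18.2 and 18.9 FPKM with GNE987, a log2 fold change of 0.40. SNHG17, the host of the SNORA71 RNAs, was at 5.92 and 6.21 FPKM against 4.11 and 4.20 FPKM, a log2 fold change of -0.54. The groups did not overlap in either gene, but the fold stayed short of 2.

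The 3 hosts that follow carry both kinds of small RNA, and SNHG12 stood apart among them. It went from 7.87 and 6.98 FPKM to 55.1 and 53.9 FPKM, a log2 fold change of 2.86 ± 0.08 (SE, adjusted P = 0.000152, limma), or 7.26-fold. Its neighbour TRNAU1AP, which shares 8 exon bases on the other strand, rose from 3.20 and 3.51 FPKM to 55.3 and 60.03 FPKM. GAS5, first found as a transcript that builds up when cells stop growing, carries 11 small RNAs and was at 55.7 and 49.4 FPKM in control and 79.3 and 77.1 FPKM with GNE987. The log2 fold change of GAS5 was 0.57 ± 0.07 (SE, adjusted P = 0.00349, limma), so it passed the P value but not the fold. SNHG25 had 4 to 10 reads in a library and a log2 fold change of 0.60 ± 0.35 (SE), which is not detectable at this depth.

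The hosts of small Cajal body RNAs changed less or were lower. SNHG20 fell by 1.86 on the log2 scale, from 2.44 and 2.76 FPKM to 0.57 and 0.726 FPKM (SE 0.18, adjusted P = 0.00165, limma), with 29 and 39 reads in the GNE987 libraries. SNHG10 was at 4.87 and 4.32 FPKM against 6.64 and 5.77 FPKM, and its head-to-head partner GLRX5, a protein of iron-sulfur cluster assembly, at 26.3 and 22.4 FPKM against 20.3 and 19.2 FPKM. Neither of these was called. SNHG21 was the only tested host gene with overlapping groups, at 1.81 and 2.15 FPKM against 1.70 and 3.55 FPKM.

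SNHG27, with no small RNA in RefSeq, had 15 and 13 reads in control and 2 and 0 with GNE987. It passed the filter on low levels only through control, so it could hardly have been called higher. Its log2 fold change of -2.34 ± 0.88 (SE) was not called (adjusted P = 0.0733, limma), and it was called lower when GNE987 replicate 1 or replicate 2 was left out, at -3.50 and -1.18. The 5 untested host genes stayed under 0.51 FPKM in every library. SNHG18 and SNHG28 were at 0 in all 4. SNHG14, which spans the imprinted region of chromosome 15 and holds the SNORD115 and SNORD116 clusters, had 2 to 6 reads in a library. SNHG22 had 2 and 2 reads in control and 11 and 4 with GNE987, and SNHG31 had 5, 10, 3 and 4 reads.

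**Figure D2:**
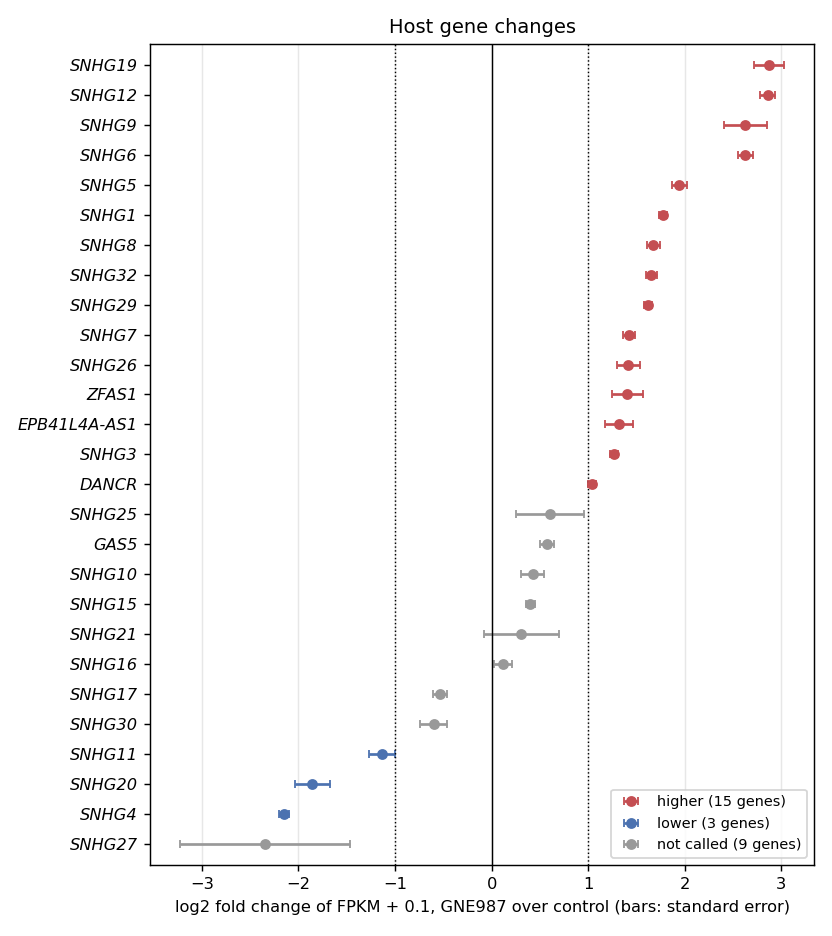
Log2 fold change of FPKM + 0.1, GNE987 over control, for the 27 tested host genes on the deposited scale, with bars for the standard error and dotted lines at 2-fold. The 15 genes called higher run from DANCR at 1.04 to SNHG19 at 2.87, SNHG11, SNHG20 and SNHG4 are lower, and SNHG27 has the widest bar, while with GAPDH scaling 10 of the 15 lie below 0.

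Most of the 79 cytosolic ribosomal protein genes were higher on the deposited scale. Of these, 77 rose and none fell, beside 24% and 31.7% of all protein-coding genes tested. The median log2 fold change of the 79 genes was 2.01. It became 0.15 with 0 genes called higher and 2 lower when the libraries were scaled to GAPDH. RPS19 and RPL28 had the largest log2 fold changes, 2.52 and 2.44. RPS19 was at 177 and 191 FPKM in control and at 1076 and 1025 FPKM with GNE987. The lowest were RPL36A at -0.17 and RPL17 at 0.55, which were the 2 not called. Ribosomal protein genes held 6.34% and 6.28% of the reads on genes in control and 15.1% and 15.0% with GNE987. Their log2 fold changes spanned -0.17 to 2.52, and those of the host genes -2.34 to 2.87.

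**Figure D3:**
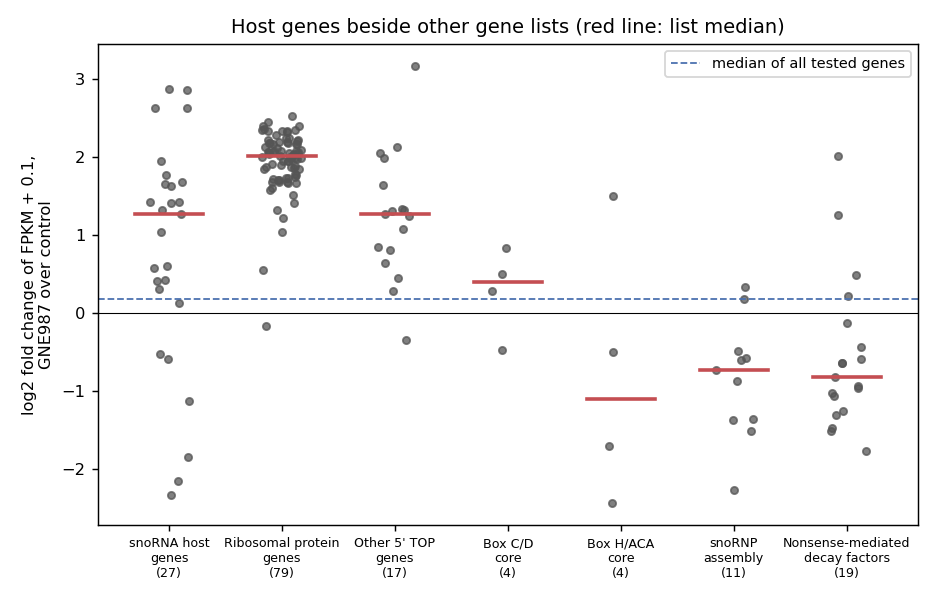
Log2 fold change of FPKM + 0.1, GNE987 over control, on the deposited scale, with a dot for each tested gene of 7 lists and the number of genes in brackets. The red line is the median of a list and the dashed line the median of all tested genes, 0.17. The ribosomal protein genes gather near 2.01, the host genes spread from -2.34 to 2.87 around 1.27, and under GAPDH scaling the host gene median is -0.58.

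How far the host genes followed the ribosomal protein genes depended on the scaling. The median of all tested genes was 0.17 as deposited, -0.59 with scaling to the total of reads, -0.24 after quantile normalization and -1.59 with scaling to GAPDH, a gene whose own log2 fold change was 1.85 as deposited. Relative to that median the host genes stood at 1.10, 1.06, 0.98 and 1.01 in the same order, and the ribosomal protein genes at 1.83, 1.80, 0.56 and 1.75. The ribosomal protein median was thus 0.74 above the host gene median as deposited, while after quantile normalization it was the host gene median that was higher, by 0.42. The calls moved more than these relative values. With the total of reads, 5 host genes were higher and 6 lower (all genes 24.9% and 40.3%), after quantile normalization 10 and 4 (25.4% and 32.8%), and with GAPDH 2 and 12 (18.2% and 58.4%). The 3 genes called lower as deposited, SNHG4, SNHG11 and SNHG20, were called lower under all 3 of these scalings.

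**Figure D4:**
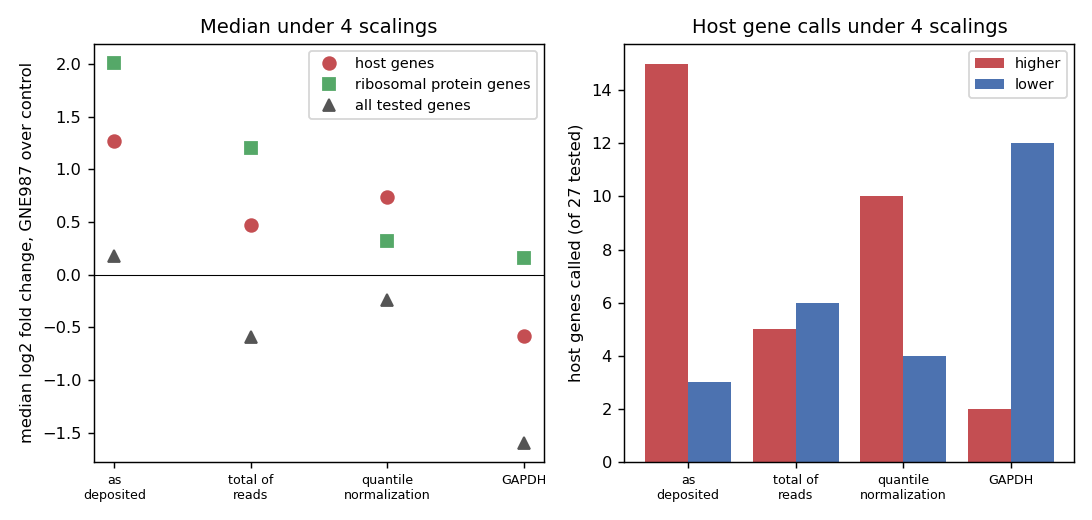
Left, median log2 fold change of the host genes, the ribosomal protein genes and all tested genes under 4 scalings of the libraries. Right, number of the 27 tested host genes called higher and lower under the same scalings. The host gene median goes from 1.27 as deposited to -0.58 with GAPDH, and the calls from 15 higher and 3 lower to 2 higher and 12 lower.

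The start sequences shown above were counted over all genes. With the GENCODE canonical start and a C within 10 bases, 13 of 32 host genes (40.6%) held a run, beside 75 of 79 ribosomal protein genes (94.9%) and 29.05% of all genes in the table. With the C within 3 bases the shares were 21.9%, 82.3% and 10.2%. At RefSeq starts and within 3 bases, 11 of 28 host genes (39.3%), 48 of 63 ribosomal protein genes (76.2%) and 13.3% of all genes held one. Under each of these counts the share of the host genes lay between that of all genes and that of the ribosomal protein genes, and no test was made.

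Whether the run went with the direction depended on the window and the annotation. At RefSeq starts within 3 bases, 7 of 13 host genes called higher and 2 of 10 others held a run, and the log2 fold changes had a median of 1.42 over the 9 with a run and 0.50 over the 14 without. At GENCODE starts within 3 bases these medians were 1.41 for 7 genes with a run and 0.85 for 20 genes without. At GENCODE starts within 10 bases the medians were 1.22 for 12 genes with a run and 1.27 for 15 genes without. The longest run among the tested genes at RefSeq starts within 3 bases is that of SNHG4, with 13 bases, and SNHG4 fell. The letters CACGTG, an E-box that MYC can bind, were searched for in the RefSeq promoters of 250 bases before to 50 after the start. Being their own reverse complement, they read the same on both strands. They were found for SNHG7 and SNHG30, 2 of 28 host genes (7.14%), for 3 of 63 ribosomal protein genes (4.76%) and in 7.43% of all RefSeq promoters.

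Other genes with a 5′ TOP start, elongation factors and the like, were higher in part. Of the 17 tested, 11 rose (64.7%) and none fell, beside 24% and 31.7% of all protein-coding genes tested. The median log2 fold change of the 17 was 1.27, the value of the host genes. EEF1D and EEF1A1, subunits of the factor that brings transfer RNA to the ribosome, rose most, by log2 fold changes of 3.16 and 2.12. EEF1G was listed at 0 in every library. With GAPDH scaling such values are lower by about the log2 fold change of GAPDH itself, 1.85.

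Of the 4 core proteins that bind box C/D RNAs none was called. FBL, the methyltransferase, was at 144 and 130 FPKM against 190 and 196 FPKM (log2 fold change 0.50), and NOP56 at 85.2 and 87.3 FPKM against 153 and 154 FPKM (0.83). NOP58 was at 41.2 and 44.9 FPKM against 30.4 and 31.6 FPKM (-0.47) and SNU13 at 55.3 and 54.5 FPKM against 66.6 and 66.8 FPKM (0.28). In all 4 the groups did not overlap but the fold stayed under 2.

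Among the 4 core proteins of box H/ACA particles the directions differed. DKC1, the pseudouridine synthase, fell by 1.71 on the log2 scale, from 58.0 and 56.3 FPKM to 17.9 and 16.9 FPKM. GAR1 fell by 2.44 on the log2 scale, from 25.3 and 20.9 FPKM to 3.98 and 4.37 FPKM. NHP2 rose by a log2 fold change of 1.49, from 35.8 and 38.3 FPKM to 104 FPKM in both libraries. NOP10 was not called, at 111 and 95.9 FPKM against 73.4 and 71.8 FPKM. The transcripts for subunits of one particle thus moved in opposite directions on the deposited scale, and the proteins were not measured here.

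Factors that assemble the particles and factors of nonsense-mediated decay were lower in part. The shares to read them against are those of all protein-coding genes tested, of which 31.7% fell and 24% rose (median log2 fold change -0.29). Of 11 assembly factors 4 fell (36.4%) and none rose (median log2 fold change -0.73), led by ZNHIT6 and RPAP3, which fell by 2.28 and 1.51 on the log2 scale. Of 19 decay factors 7 fell (36.8%) and 2 rose (median -0.83). SMG8 and MAGOHB fell most, by 1.77 and 1.51 on the log2 scale. EIF4A3, a core protein of the exon junction complex, and SMG1, the kinase of UPF1, were the 2 that rose, by log2 fold changes of 2.01 and 1.26. UPF1 itself was at 30.4 and 32.1 FPKM against 17.3 and 17.8 FPKM and was not called.

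The neighbours of host genes on the other strand gave a mixed picture. Of the 7 tested protein-coding genes that start within 1000 bases of a host gene on the other strand, 3 were called, all higher, namely RPS2 beside SNHG9, ZBTB37 beside GAS5 (log2 fold change 1.20) and ACAA2 beside the untested SNHG22 (1.11). TRAF7, ZNFX1, GLRX5 and BARD1, the last beside SNHG31 at -0.66, were not called. Exon overlap was frequent. Of the 27 tested host genes, 19 share GENCODE exon bases with another gene. Of the 21 tested genes that share them 16 were higher and none was lower (all genes 33.6% and 24.9%). Some of them were near 0 FPKM in control, such as MCMDC2 beside SNHG6 and PRSS12 beside SNHG8, described above. MCMDC2 and PRSS12 passed the filter on low levels only through the GNE987 libraries, so neither could have been called lower. The part of the overlap in the host gene results was not tested. Of 42 genes in the whole table that lie by at least 90% inside exons of a gene on the other strand with 20 FPKM or more, 35 were at 0 in all 4 libraries.

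Few reads were assigned to the small RNAs inside the host genes. The table lists 145 of them, 84 within SNHG14, of which 83 were at 0, and 61 in the other host genes, of which 42 were at 0 in every library. Of these 42, 38 overlap an exon of the host gene, and the part of the overlap in the zeros was not tested. Those 61 held 307 and 258 reads in control and 142 and 106 with GNE987. As 1 GNE987 read weighs as much as 2.75 or 2.61 reads of control replicate 1, the sums cannot be compared directly. They also rest largely on SNORD99, with 7 and 1 of these reads in control and 65 and 62 with GNE987. The sums therefore give no direction for the small RNAs as a whole. Most mature small nucleolar RNAs are shorter than the fragments of such libraries and carry no poly(A) tail, so these reads are no measure of the mature RNA. Of the 17 tested, 3 were higher and 5 lower (all genes 33.6% and 24.9%). Of the 3 higher, an unnamed small RNA in SNHG28 had 0 reads in both controls and 2 and 1 with GNE987. It passed the filter only through GNE987. Of the 5 lower, SNORA13 in EPB41L4A-AS1 had 7 and 5 reads in control and 0 in both GNE987 libraries, and passed only through control.

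SNORD99 in SNHG12 was the one with the highest mean level. It had 7 and 1 reads in control and 65 and 62 reads with GNE987, which are 4.11 and 0.611 FPKM against 105 and 94.9 FPKM. It was called higher. SNORD104 in SNHG25 had 70 and 37 reads in control and 7 and 6 with GNE987, and was called lower. The 2 thus moved apart although both lie in host genes that carry both kinds of small RNA.

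SNORA71C and SNORA71A in SNHG17 were called lower, with 35 and 45 reads against 0 and 1 for the first and 14 and 12 against 1 and 1 for the second. In FPKM SNORA71C was at 11.3 and 15.2 against 0 and 0.846, and SNORA71A at 4.54 and 4.05 against 0.893 and 0.846. SNORA71C passed the filter only through control. SNORA71D of the same gene had 13 and 3 reads against 5 and 3 (4.21 and 1.01 FPKM against 4.46 and 2.54 FPKM) and was not called. SCARNA13 in SNHG10 had 6 and 6 reads against 22 and 8 (0.948 and 0.986 FPKM against 9.57 and 3.30 FPKM) and was called higher. SNORA73B in SNHG3 had 95 and 57 reads in control and 20 and 10 with GNE987. These are 20.2 and 12.6 FPKM against 11.7 and 5.55 FPKM. SNORA73B was not called (adjusted P = 0.124, limma), while its host gene was higher. SNORD12B, SNORD12C and SNORA26, in ZFAS1 and DANCR, had at most 20 reads in a library and were not called.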

How the data were processed

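The study sequenced RNA of 2 control and 2 GNE987 libraries with a TruSeq kit. Per the labels the reads were aligned with HISAT2 2.0.5 to hg38. The authors filtered the reads and deposited FPKM values per Ensembl gene, while the counting program and its annotation are not given in the sources used here. The kit and the labels give no strand setting, so antisense and overlapping genes cannot be told apart.

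Values were taken as log2(FPKM + 0.1). The 16668 genes whose mean level reached 0.5 FPKM were fitted together with limma 3.58.1 in R 4.3.3 (empirical Bayes with an intensity trend, two-sided, no replicate block). A fold change is on this scale and understates low genes. A call needed P under 0.05 without adjustment and a change of more than 2-fold up or down, the thresholds of the study's methods. Benjamini-Hochberg adjustment ran over all genes tested. The members and lists were chosen with earlier results of these data known. All host genes over the filter are named, ribosomal protein genes by the 3 highest and 3 lowest fold changes and those not called higher (1 of each 3 is not reported here), the core particle proteins in full, partners within 1000 bases if tested, small RNAs by the 10 highest means, and other lists by counts with the 2 largest called changes each way. Overlapping neighbours, histone genes, UPF1, HSPA8, NCL, GADD45A and the grouping by small RNA were chosen after the values were seen.

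Reads were worked out from the spacing of FPKM values, within 0.01 of a whole read. At GENCODE release 44 exon lengths 53.0% of the genes above 0 came out whole, and for 15429 more a whole length was searched, which is a weak test. For 21 of the 27 tested host genes that length is shorter than in GENCODE. The recovered reads on genes were 16692721 and 16500331 in control and 10810967 and 11258215 with GNE987. The reads are counting units only and gave depth and an alternative, not the main test. Of the 58735 identifiers 58207 (99.1%) are in GENCODE. Start and promoter sequences are RefSeq GRCh38.p14 or GENCODE on GRCh38.

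The steps were tested on data made with known answers. Alternatives were the scaling, the pseudocount, the filter, the P value, a test against 2-fold, limma-voom on recovered reads, the replicate number as a block and each library left out. Same-numbered libraries of the 2 groups had deviations with a correlation of 0.00537, so the numbers do not pair them.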

Additional observations from a re-analysis of the deposited data

How the results depend on the processing

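With scaling to GAPDH, 3031 of all genes were higher and 9738 lower, 2 and 12 host genes, and 0 and 2 ribosomal protein genes, and the host gene median was -0.58. It also turned 16 host genes, SNHG1 to -0.081, SNHG8 to -0.17, SNHG32 to -0.20, SNHG29 to -0.23, SNHG26 to -0.36, SNHG7 to -0.41, ZFAS1 to -0.44, EPB41L4A-AS1 to -0.49, SNHG3 to -0.58, DANCR to -0.81, SNHG25 to -1.15, GAS5 to -1.28, SNHG10 to -1.40, SNHG15 to -1.44, SNHG21 to -1.46 and SNHG16 to -1.72. With the total of reads 6723 of all genes were lower, 5 host genes were higher and 6 lower, the median was 0.47, and SNHG25 (-0.16), GAS5 (-0.23), SNHG10 (-0.37), SNHG15 (-0.40), SNHG21 (-0.46) and SNHG16 (-0.68) turned. After quantile normalization 12 ribosomal protein genes were higher, the host gene median was 0.74, and GAS5 (-0.11) and SNHG21 (-0.023) turned. These scalings differ from the deposited one by their construction, and which fits these cells was not tested. With no filter 8757 of all genes were higher, with more genes tested, and the host gene median was 1.15. With a pseudocount of 1 it was 1.03.

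Leaving out each library in turn gave 15 host genes higher, 3 to 4 lower, a median of 1.17 to 1.27, and 74 to 76 ribosomal protein genes higher. Over all genes it gave 4978 to 5374 higher and 3714 to 4101 lower. SNHG21 was at -0.20 without GNE987 replicate 2 and at 0.82 without GNE987 replicate 1. With 1 library left in a group, that library is assumed to vary like the others. With the replicate number as a block 15 host genes were higher and 4 lower, the added one being SNHG27, which limma-voom also called. Median-ratio scaling left each host gene call as it was, since the deposited values already follow it. The share of host genes with a run at the start, 40.6%, was 21.9% within 3 bases and 60.7% at RefSeq starts.

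Depth limits the low host genes most. Of the 27 tested, 4 had under 20 reads in a library, SNHG9, SNHG21, SNHG25 and SNHG27, and with 2 libraries a group an exact permutation test of a single gene cannot go below P = 0.333.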

Other observations

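Protein-coding genes that host small nucleolar RNAs in their introns showed no common direction on the deposited scale. Of the 20 tested, 4 rose (20%) and 3 fell (15%), with a median log2 fold change of -0.10, beside 24% and 31.7% of all protein-coding genes tested, whose median was -0.29. RCC1 and EEF2, the factor that moves the ribosome along the messenger RNA, rose most, by log2 fold changes of 2.33 and 1.98, and DKC1 and TBRG4, a regulator of mitochondrial RNA, fell by 1.71 and 1.36 on the log2 scale. HSPA8, a constitutive heat shock protein and host of several box C/D RNAs, was at 414 and 455 FPKM in control and at 185 and 183 FPKM with GNE987. NCL, the nucleolar protein nucleolin, was at 126 and 135 FPKM against 159 and 158 FPKM and was not called.

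Of 13 messenger RNAs known as targets of nonsense-mediated decay, 2 rose and 4 fell, with a median log2 fold change of 0.05. Among all protein-coding genes tested 24% rose and 31.7% fell. GADD45B, which responds to stress, had the largest increase, from 0.447 and 0.444 FPKM to 33.0 and 35.2 FPKM, followed by RASSF1 at a log2 fold change of 2.68. TBL2 and PPIL4 fell most, by 1.55 and 1.25 on the log2 scale. GADD45A was at 37.6 and 36.2 FPKM against 39.3 and 37.4 FPKM. With scaling to GAPDH the values of both lists are lower by about 1.85.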
